A study of Mus musculus with 8 samples.

Results

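The Shc adaptor family of the mouse consists of Shc1, Shc2, Shc3 and Shc4. Its 4 genes were taken by symbol from the 24421 gene rows of the count tables, and all 4 passed the filter that left 15438 genes for testing. Shc proteins carry no enzyme activity. They dock on phosphorylated tyrosines of growth factor receptors through a PTB domain and an SH2 domain, and tyrosines in the stretch between these domains, once phosphorylated, recruit Grb2 and with it the Ras exchange factor Sos. Shc1 (ShcA) is the widespread member, whose longest isoform, p66, is also known for a role in oxidative stress, whereas Shc2 (ShcB) and Shc3 (ShcC) are known as the neuronal members downstream of neurotrophin and RET receptors, and Shc4 (ShcD, RaLP) as the last to be described.

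The series measured ribosome-bound RNA from the hypothalamus and medial amygdala of C57BL/6 mice in 8 libraries. The 4 KO libraries were of genotype Otp-Cre; Cicflox/flox; ROSAfsTRAP and the 4 Control libraries of genotype Otp-Cre; ROSAfsTRAP, so that both groups shared Cre and the ribosome tag and differed in the floxed Cic alleles. Otp-Cre acts in cells descended from Otp-expressing progenitors, where ROSAfsTRAP tags ribosomes for purification (translating ribosome affinity purification, TRAP) and Cre deletes floxed Cic. Cic encodes Capicua, a DNA-binding repressor of genes that respond to receptor tyrosine kinase signalling, and human SHC3 and SHC4 are among the genes known to be repressed by CIC in cell lines. The labels give no age or sex and do not say whether a library came from 1 mouse, so p-values cover the spread between these samples, which may be technical in part.

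Reads counted to genes numbered 33223878 to 49587839 in the KO libraries and 38171319 to 57300362 in the Control libraries. Reads of the ERCC spike-in RNA amounted to 0.0655%, 0.0569%, 0.395% and 0.0739% of these in KO replicates 1 to 4. In Control replicates 1 to 4 they amounted to 0.299%, 0.522%, 0.401% and 0.327%, so KO replicates 1, 2 and 4 lay below every Control library. The part of this difference in the Shc values was not tested. Cic measured 34.5 to 59.3 CPM (counts per 1000000 gene reads, scaled with TMM factors) in KO and 72.4 to 103 in Control, and KO held 46.7% of the Control level (edgeR quasi-likelihood test, adjusted p = 0.00220). The summed level of 8 neuronal markers was 12427 to 16535 CPM in KO against 12157 to 14294 in Control. Most of it was Snap25, with means of 11528 CPM in KO and 10610 CPM in Control. Of the 8 markers 6 were higher and 2 lower in KO (median log2 fold change 0.12). Otp, the gene that defines the lineage, was low at 4.96 ± 2.54 CPM in KO and 3.45 ± 1.14 CPM in Control (SD, n = 4 each). Purified RNA still held glial transcripts, with 12 oligodendrocyte markers summing to 1675 to 3073 CPM in KO against 2615 to 3326 in Control. In such bulk RNA, fewer cells of a type and less RNA per cell cannot be told apart.

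The promoters of the family were compared for a pair of short sequences. Capicua is known to bind the octamers TGAATGAA and TGAATGGA. RefSeq windows from 250 bases before to 50 bases after a transcript start (build GRCm38.p6) were searched for both octamers on both strands, and neither octamer can be read inside the other. The windows held for Shc4 (chr2:125724099-125724398, minus strand), Shc2 (chr10:79637869-79638168, minus strand) and the pair of starts of Shc1 (chr3:89418301-89418600 and chr3:89421371-89421670, plus strand) are printed 5′ to 3′ in the direction of the gene so that the one with matches can be read beside those without. Capitals mark an octamer, here in its reverse complement.
Shc4: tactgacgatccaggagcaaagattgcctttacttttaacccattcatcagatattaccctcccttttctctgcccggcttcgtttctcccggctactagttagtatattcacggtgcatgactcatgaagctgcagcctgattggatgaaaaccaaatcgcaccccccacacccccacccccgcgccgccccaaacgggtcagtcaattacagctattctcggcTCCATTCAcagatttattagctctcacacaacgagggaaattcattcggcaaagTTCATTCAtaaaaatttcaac
Shc2: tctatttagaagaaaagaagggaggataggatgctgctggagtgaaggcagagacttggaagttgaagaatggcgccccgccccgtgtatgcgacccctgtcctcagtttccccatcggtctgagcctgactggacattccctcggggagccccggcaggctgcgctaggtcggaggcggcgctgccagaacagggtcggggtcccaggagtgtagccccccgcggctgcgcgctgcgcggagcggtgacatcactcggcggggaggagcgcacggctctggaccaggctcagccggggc
Shc1 at the first start: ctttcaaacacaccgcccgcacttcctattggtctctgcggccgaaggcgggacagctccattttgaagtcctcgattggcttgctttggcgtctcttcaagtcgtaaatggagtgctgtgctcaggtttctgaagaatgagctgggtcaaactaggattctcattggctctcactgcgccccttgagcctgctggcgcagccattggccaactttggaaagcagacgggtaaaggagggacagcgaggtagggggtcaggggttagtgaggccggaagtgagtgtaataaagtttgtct
Shc1 at the second start: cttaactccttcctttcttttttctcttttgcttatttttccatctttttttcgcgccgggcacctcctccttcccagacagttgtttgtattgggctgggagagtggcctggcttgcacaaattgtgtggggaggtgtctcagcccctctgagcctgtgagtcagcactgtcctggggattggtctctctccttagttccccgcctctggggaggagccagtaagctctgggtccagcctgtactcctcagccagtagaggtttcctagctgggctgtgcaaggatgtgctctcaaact
Shc3 was not matched in the table.

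Of these windows, that of Shc4 held 2 matches and those of Shc1 and Shc2 held 0. In the Shc4 window TCCATTCA, the reverse complement of TGAATGGA, lies from position -25 to -18 relative to the start, and TTCATTCA, the reverse complement of TGAATGAA, from 30 to 37 after it. Among all 32851 windows of this length 2.47% held at least 1 match, 0.134% held 2 or more, and 13 windows (0.0396%) held both octamers. The GC content was 47.3% for Shc4, 65.7% for Shc2 and 53.7% and 53.3% for Shc1. A match describes these letters and is not a measured binding site. Whether these letters have a part in any difference between the genotypes was not tested.

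Shc4 was the least abundant Shc gene and the one with the largest difference between the genotypes. It measured 10.7, 10.01, 7.62 and 4.81 CPM in KO replicates 1 to 4, and 4.16, 2.68, 3.97 and 4.86 CPM in Control replicates 1 to 4. KO replicates 1, 2 and 3 lay above every Control library, while KO replicate 4 lay just below Control replicate 4, so the groups overlapped by that 1 library. The means were 8.29 ± 2.67 CPM in KO and 3.92 ± 0.908 CPM in Control (SD, n = 4 each), a fold change of 2.12 with a 95% interval of 1.44 to 3.12 (log2 fold change 1.08, SE 0.27). The exact permutation p over the 8 CPM values was 0.0571 and the edgeR p before adjustment 0.000647. Adjusted over all 15438 genes the edgeR p was 0.111, which missed the threshold of 0.05. DESeq2 gave the same size (1.08) with an adjusted p of 0.0139, and limma-voom gave an adjusted p of 0.121. Without KO replicate 4, the lowest KO library for Shc4, the edgeR log2 fold change was 1.26 with an adjusted p of 0.0266. In that fit 0.338% of all genes passed. Leaving out any other single library gave log2 fold changes of 0.92 to 1.20 and edgeR adjusted p values of 0.165 to 0.314. KO replicate 4 had the fewest gene reads of the 8 libraries (33223878) and the fewest genes with a count (16804). Its share of records not aligned uniquely was the highest (81.9%, against 63.3% to 75.5% in the others). Its sum of the 9 Otp-lineage markers was also the highest (2188 CPM, against 1176 to 1772 in the others). The part of these traits in its Shc4 value was not tested.

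Shc4 ranked 90th by p and had a larger log2 fold change than all but 0.991% of the genes tested. Its reads were few, 520, 436, 308 and 156 in KO and 243, 114, 150 and 217 in Control. Counting error at this depth, with reads taken as independent, amounts to 5.72% of the value in KO and 7.68% in Control. The coefficients of variation between libraries were larger, at 32.3% in KO and 23.2% in Control. The cDNA was amplified without molecular identifiers, so the error of counting molecules may exceed 5.72% and 7.68% by an unknown amount.

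**Figure D1:**
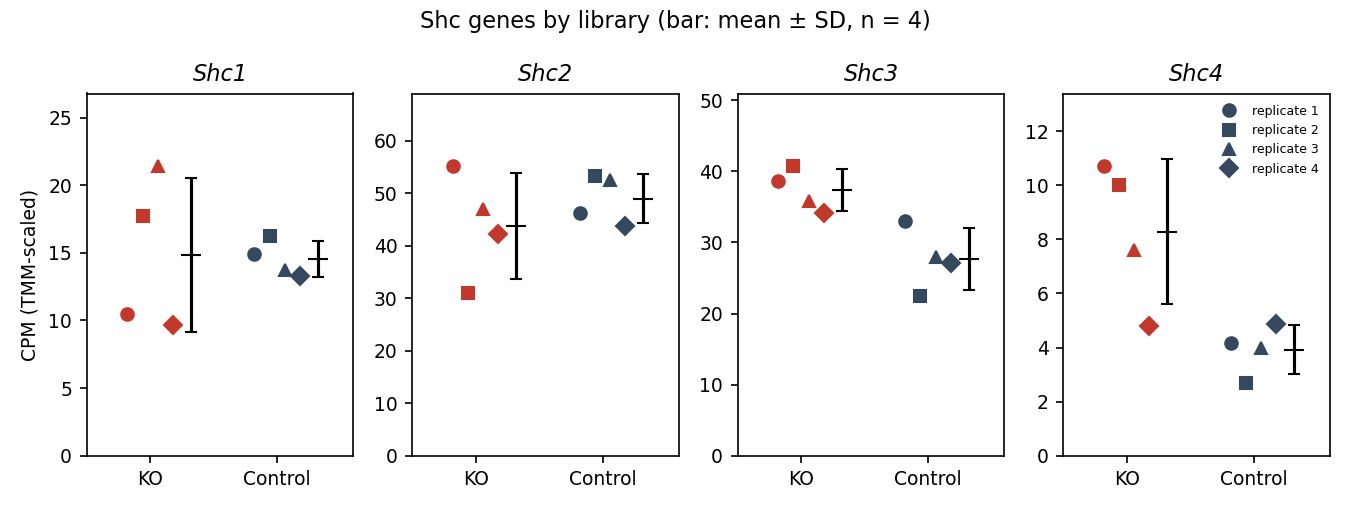
CPM of each Shc gene (vertical axes, each from 0) in 4 KO and 4 Control libraries; points are libraries with 1 symbol per replicate number, and bars are mean ± SD. Shc3 separates the groups, Shc4 overlaps only through KO replicate 4 at 4.81 CPM and Control replicate 4 at 4.86 CPM, and Shc1 and Shc2 overlap.

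Shc4 (ENSMUSG00000035109.14 in GENCODE M21) lies on chromosome 2 from 125627447 to 125724148 on the minus strand of GRCm38, and Eid1, which encodes an inhibitor of the coactivator EP300, lies inside it on the opposite strand from 125673095 to 125674785. There, annotated exons of Shc4 share 527 bases with those of Eid1. The library chemistry does not mark strand and Eid1 was far more abundant, so reads of the shared stretch could enter Shc4, or be dropped as ambiguous, depending on which annotation and strand setting the authors counted with. Eid1 itself had 307 ± 59.6 CPM in KO and 318 ± 31.7 CPM in Control (SD, n = 4 each), a log2 fold change of -0.05 with an SE of 0.14 (edgeR adjusted p = 0.942). KO replicate 2, at 10.01 CPM for Shc4, was the lowest library for Eid1 at 218 CPM. The other KO libraries had Eid1 at 331 to 342 CPM and Shc4 at 4.81 to 10.7 CPM. Whether Eid1 reads entered the Shc4 counts was not tested.

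Shc3, the neuronal ShcC, measured more in each of the 4 KO libraries than in the highest Control library. Its levels were 38.7, 40.8, 35.9 and 34.1 CPM in KO replicates 1 to 4, and 33.1, 22.5, 28.01 and 27.04 CPM in Control replicates 1 to 4. The lowest KO library, at 34.1 CPM, lay close to the highest Control library, at 33.1 CPM. The means were 37.3 ± 2.95 CPM in KO and 27.7 ± 4.34 CPM in Control (SD, n = 4 each), with an exact permutation p of 0.0286, two-sided, which is the smallest that 4 against 4 allows. The fold change was 1.35 with a 95% interval of 1.11 to 1.65 (log2 fold change 0.43, SE 0.14), and over all genes the difference did not pass (adjusted p = 0.228 with edgeR and 0.110 with DESeq2). Shc3 was thus 1 of the 4 Shc genes without overlap between the groups, a state found in 5.93% of all tested genes (KO above in 3.01%, KO below in 2.91%). It lies on chromosome 13 from 51431041 to 51569419 and overlaps no other annotated gene. The nearest counted genes on either side did not pass: S1pr3, a receptor for sphingosine-1-phosphate, was at -0.14 and Cks2, a subunit of cyclin-dependent kinase complexes, at 0.07 (edgeR adjusted p = 0.908 and 0.970).

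Shc2 showed no difference beyond its spread. It measured 55.2, 31.03, 46.9 and 42.2 CPM in KO replicates 1 to 4, and 46.3, 53.3, 52.5 and 43.8 CPM in Control replicates 1 to 4. KO held both the highest and the lowest library, and the Control values lay between them. The means were 43.8 ± 10.1 CPM in KO and 49.0 ± 4.67 CPM in Control (SD, n = 4 each). The log2 fold change was -0.16 with an SE of 0.15 (edgeR adjusted p = 0.780), and the 95% interval of the fold change ran from 0.72 to 1.11. Shc2 lies on chromosome 10 from 79618051 to 79637918. It shares 63 exon bases at its start with Gm47163, a non-coding gene on the opposite strand that the count tables do not list. The counted neighbours C2cd4c (log2 fold change 0.11) and Odf3l2 (0.25, at about 1 CPM or less in every library) did not pass (edgeR adjusted p = 0.921 and 0.936).

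Shc1 had nearly equal means and an unequal spread. It measured 10.5, 17.7, 21.4 and 9.64 CPM in KO replicates 1 to 4, and 14.9, 16.3, 13.7 and 13.3 CPM in Control replicates 1 to 4. A pair of KO libraries lay below all Control libraries and the other pair above them. The means were 14.8 ± 5.70 CPM in KO and 14.6 ± 1.33 CPM in Control (SD, n = 4 each). The log2 fold change was 0.03 with an SE of 0.22 (edgeR adjusted p = 0.982), and the 95% interval of the fold change ran from 0.75 to 1.39. The coefficient of variation was 38.4% in KO and 9.11% in Control, while counting error, with reads taken as independent, was 4.27% and 3.92%. The sign of this small value turned under several settings (upper-quartile scaling, limma-voom, the replicate block, the glial and vascular covariate and 3 of the fits that left out 1 library). Shc1 lies on chromosome 3 from 89418443 to 89430027, and its isoforms were counted together, so a shift between p66 and the shorter forms would not be seen. Its near neighbours Cks1b, a subunit of cyclin-dependent kinase complexes (-0.09), and Pygo2, a cofactor of Wnt signalling (-0.06), did not pass either (edgeR adjusted p = 0.940 and 0.939).

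Across the family, 0 of 4 genes passed the edgeR test over all genes, where 0.259% of the genes tested did (0.194% higher and 0.0648% lower in KO). Before adjustment 2 of 4 passed p 0.05, both higher in KO, against 10.6% of all tested genes in either direction and 6.06% higher in KO. The family was chosen with earlier results of these data known, so its share beside that of all genes gives no separate support. DESeq2 called 1 of 4 (Shc4), where it called 1.25% of all genes with an adjusted p, and limma-voom 0, where it called 0.207%. Signs were positive for 3 and negative for 1, with a median log2 fold change of 0.23 against 0.02 over all tested genes. This median lies between Shc1 at 0.03 (SE 0.22) and Shc3 at 0.43. The sign of Shc1 turned in 7 of 16 alternatives. None of the members lies on chromosome 7, which carries Cic.

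**Figure D2:**
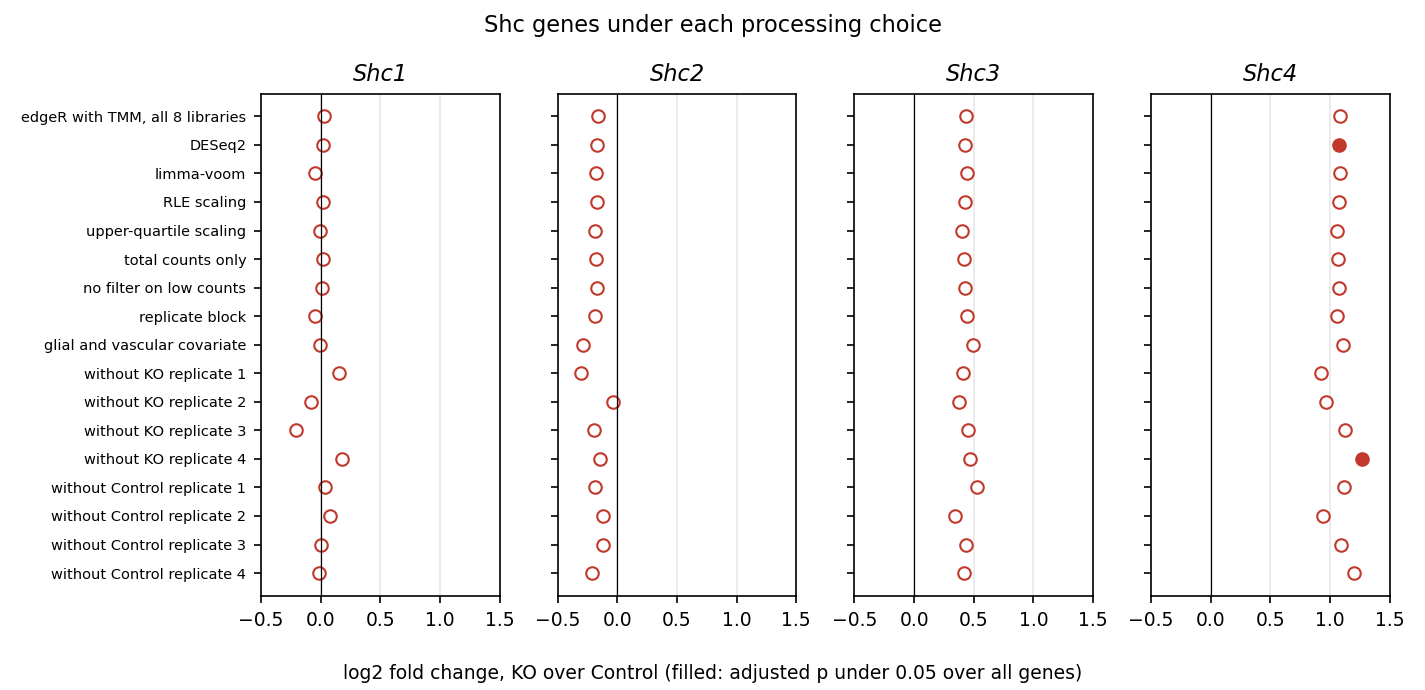
Log2 fold change of KO over Control (horizontal axis) for each Shc gene under the 17 fits named on the vertical axis; a filled point marks an adjusted p under 0.05 over all genes. Shc4 stays between 0.92 and 1.26 and is filled with DESeq2 and without KO replicate 4, Shc3 stays between 0.34 and 0.53, Shc2 stays below 0, and Shc1 lies on both sides of 0.

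Ratios of one Shc gene to another within a library need no scaling between libraries. They were used to ask whether one member differed from another in its response. The log2 ratio of Shc4 to Shc2 counts was -3.13 to -1.63 in KO and -4.31 to -3.17 in Control, with no overlap, and the means differed by 1.23 (SE 0.40, exact permutation p = 0.0286). Shc4 to Shc1 differed by 1.10 (SE 0.40, exact permutation p = 0.0571), and Shc4 to Shc3 by 0.60 (SE 0.25, exact permutation p = 0.0857). Among the other members, Shc3 to Shc2 differed by 0.63 (exact permutation p = 0.0571), Shc3 to Shc1 by 0.49 (exact permutation p = 0.200) and Shc2 to Shc1 by -0.13 (exact permutation p = 0.714). With Benjamini-Hochberg adjustment over the 6 pairs the smallest p was 0.114. No exact p in 4 against 4 libraries can fall below 0.0286, so a single pair without overlap could not pass this adjustment. A difference in response between any pair of members was therefore neither established nor excluded.

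**Figure D3:**
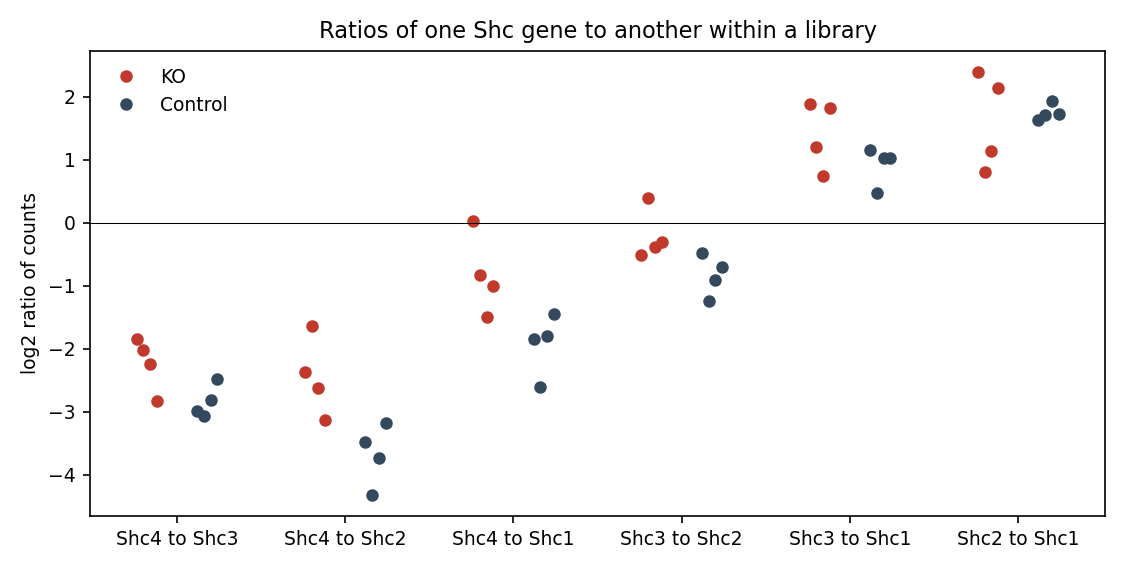
Log2 ratio of the counts of one Shc gene to another (vertical axis) for the 6 pairs; each point is 1 library, KO left of Control. The ratio of Shc4 to Shc2 has no overlap between the groups, and the other 5 pairs overlap.

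Scaled to the length of the exon union (CPM per kilobase), the levels in KO were 8.14 ± 0.644 for Shc3, 8.08 ± 1.86 for Shc2, 2.63 ± 1.01 for Shc1 and 1.003 ± 0.324 for Shc4 (SD, n = 4 each), where Shc3 and Shc2 overlapped and did not differ beyond their spread. Control libraries ordered them as Shc2 with 9.03 ± 0.861, Shc3 with 6.03 ± 0.946, Shc1 with 2.58 ± 0.235 and Shc4 with 0.474 ± 0.110 (SD, n = 4 each), and no neighbours in this order overlapped. The place of Shc3 depends on the length used. Its longest coding transcript in GENCODE M21, at 1537 bases, is much shorter than its exon union of 4586 bases, and scaled to the longest coding transcript Shc3 came first in both groups (24.3 ± 1.92 in KO and 17.99 ± 2.82 in Control, against 13.5 ± 3.11 and 15.1 ± 1.44 for Shc2), with overlap in Control. Shc1 and Shc4 kept the third and the last place on both lengths. In Control, 69.6% of the 14870 tested genes with a length had a lower level per kilobase of exon union than Shc2, and 16.3% a lower one than Shc4.

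Summed on the exon union scale, the 4 genes reached 17.5 to 21.8 CPM per kilobase in KO and 16.9 to 18.9 in Control. Of this sum Shc4 made up 5.01% ± 1.43 in KO and 2.63% ± 0.681 in Control, and Shc3 41.3% ± 4.42 and 33.3% ± 4.55. Shc2 made up 40.5% ± 7.33 in KO and 49.9% ± 4.26 in Control, and Shc1 13.2% ± 4.72 and 14.2% ± 1.29. These shares are given as a description, since they depend on one another.

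**Figure D4:**
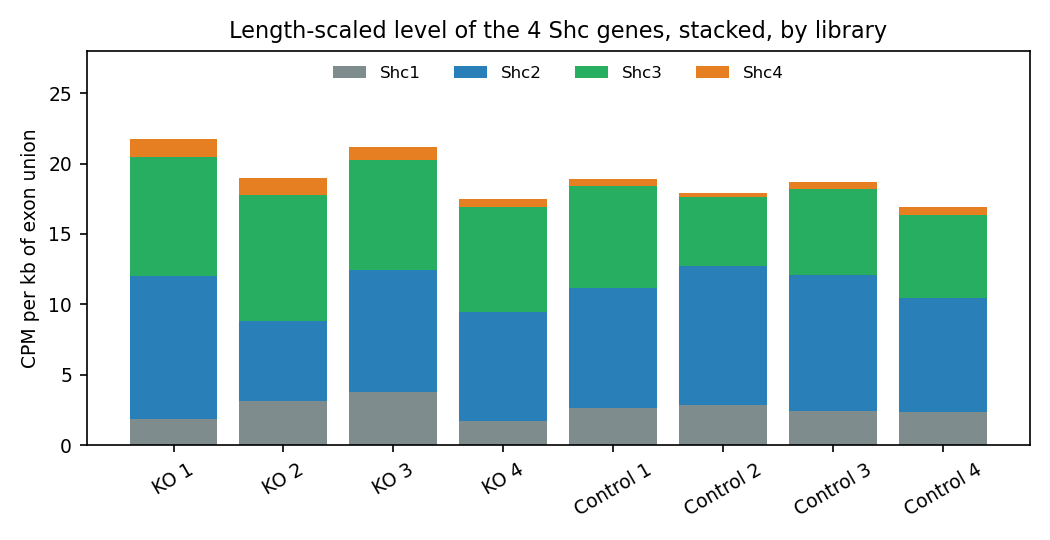
CPM per kilobase of exon union (vertical axis, from 0), stacked over the 4 Shc genes, for 4 KO and then 4 Control libraries. Shc2 and Shc3 make up most of each bar, and Shc4 is a thin top layer that averages 5.01% in KO and 2.63% in Control.

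Likeness of pattern was measured as the root mean square difference of log2 CPM over the 8 libraries, each gene centred on its own mean, among 10539 other named genes with a mean of at least 5 CPM. These 8 libraries also hold the difference between the genotypes, so genes near a member tend to share its difference by selection. Their own differences therefore add no separate support. For Shc4 the nearest genes were Mob1b (0.29), Lcp2 (0.30) and Gprin3 (0.30), against a median of 0.67. Gprin3 averaged 7.98 CPM in KO and 4.79 CPM in Control, so its Control mean alone lay below the limit of 5 CPM. Lcp2, which encodes the adaptor SLP-76 of T cell receptor signalling, had 10.6 ± 2.50 CPM in KO and 5.23 ± 0.536 CPM in Control and was past the threshold (log2 fold change 1.02 and SE 0.21, with an edgeR adjusted p of 0.0489 that ran from 0.00134 to 0.233 over the alternatives). Near Shc3 lay the receptor gene Igf1r (0.09) and Copa (0.09), with log2 fold changes of 0.35 and 0.32 that did not pass. The nearest of Shc2 were Dyrk1b, Ttbk1 and Zxdc (each 0.09), and near Shc1 lay Zdhhc24 (0.10) and Mlxip (0.14), none of these 5 past the edgeR threshold. Among the members themselves the closest pair was Shc3 and Shc4 (0.43) and the farthest Shc2 and Shc4 (0.78). The distance of 0.43 lies above the median distance of all candidates from Shc3 (0.33) and below that from Shc4.

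Genes that act with Shc proteins were counted in 8 lists of receptors, effectors, related adaptors, kinases, phosphatases and genes of the p66 pathway. Of 88 genes 83 were tested, and 0 passed the edgeR test over all genes in either direction. Before adjustment 11 of the 83 (13.3%) passed p 0.05, 7 higher and 4 lower in KO, near the 10.6% of all tested genes. DESeq2 called 1, Cat, near its 1.25% of all genes, and limma-voom 0, against 0.207% of all genes. Signs were positive for 49 and negative for 34, where 53.8% of all tested genes were positive, with a median log2 fold change of 0.03 against 0.02 over all tested genes.

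Of the receptors that recruit Shc2 and Shc3, the BDNF receptor Ntrk2 was the most abundant of its list by CPM and differed least, with 352 ± 45.3 CPM in KO and 352 ± 71.01 CPM in Control (SD, n = 4 each), a log2 fold change of 0.00 with an edgeR adjusted p of 0.999. The neurotrophin-3 receptor Ntrk3 had 46.9 ± 3.78 CPM in KO and 39.1 ± 3.41 CPM in Control, with the lowest KO library just above the highest Control library, and did not pass (0.26, edgeR adjusted p = 0.441). Ret, the receptor kinase for GDNF family ligands, was at -0.29 (edgeR adjusted p = 0.611), at -0.53 without KO replicate 2 and at -0.15 without KO replicate 4. The neurotrophin and RET list had 8 genes tested and a median of 0.14. Among the 19 other receptor kinases the median was 0.02, and the members of smallest p in each direction were Igf1r, the IGF-1 receptor, at 0.35 and Pdgfra, a PDGF receptor that also marks oligodendrocyte precursors, at -0.42 (edgeR adjusted p = 0.322 and 0.665). Pdgfra was at -0.23 with the glial and vascular covariate and at -0.21 without Control replicate 1.

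Downstream, all 7 tested genes of the Grb2, Sos and Gab group had positive values, where 53.8% of all tested genes were positive. Their median was 0.26, and 0 passed the threshold. Values ran from 0.01 for Gab2 to 0.64 for Grap2, with Gab3 at 0.31 (SE 0.44), all named after their values were seen. Grap2 measured 0.780 CPM in KO and 0.496 CPM in Control, with an SE of 0.85. Sos1, the exchange factor that loads Ras with GTP, had 207 ± 23.1 CPM in KO and 159 ± 24.1 CPM in Control (0.39, SE 0.13, edgeR adjusted p = 0.264), with 3 KO libraries above every Control library. Grb2, the SH2 adaptor that binds phosphorylated Shc, had 84.6 ± 5.60 CPM in KO and 82.5 ± 6.23 CPM in Control (0.04, edgeR adjusted p = 0.944, with the sign turned without KO replicate 1). The 3 Ras genes were at a median of -0.05, led by Nras at -0.08.

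In the other groups no gene passed either. Of 21 tested related adaptors 12 were positive and 9 negative (median 0.03), with the receptor-binding adaptors Grb10 at 0.50 and Grb14 at -0.28 (edgeR adjusted p = 0.356 and 0.589). Grb10 was at 0.27 with the glial and vascular covariate and at 0.29 without KO replicate 1. Of 8 non-receptor kinases 3 were positive and 5 negative (median -0.03), with Syk at 0.35 and Ptk2b, a calcium-responsive relative of focal adhesion kinase, at -0.64 (edgeR adjusted p = 0.848 and 0.219). Ptk2b was at -0.38 with the covariate and at -0.42 without Control replicate 4, and Syk at -0.031 to 0.71 when 1 library was left out. Phosphatases and Shc binders had 9 tested genes and a median of 0.00, with the tyrosine phosphatase gene Ptpn1 at 0.10 and Ppp1ca, a catalytic subunit of protein phosphatase 1, at -0.38 (edgeR adjusted p = 0.884 and 0.294). Ppp1ca and Ppp1cc, another catalytic subunit, were the 2 genes of this list without overlap between the groups, both lower in KO. Over all 83 tested partner genes, 2 lay above and 2 below in KO without overlap, where 3.01% and 2.91% of all tested genes did. Ppp1cc, named after its value was seen, was at -0.29 (edgeR adjusted p = 0.354). The p66 list had 8 tested genes and a median of 0.17. In it Cat, catalase, had 99.2 ± 18.5 CPM in KO and 68.3 ± 8.04 CPM in Control without overlap (0.54, SE 0.14, edgeR adjusted p = 0.126, DESeq2 0.0262), and the kinase gene Prkcd was at -0.62 (edgeR adjusted p = 0.366) and at -0.37 with the covariate.

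**Figure D5:**
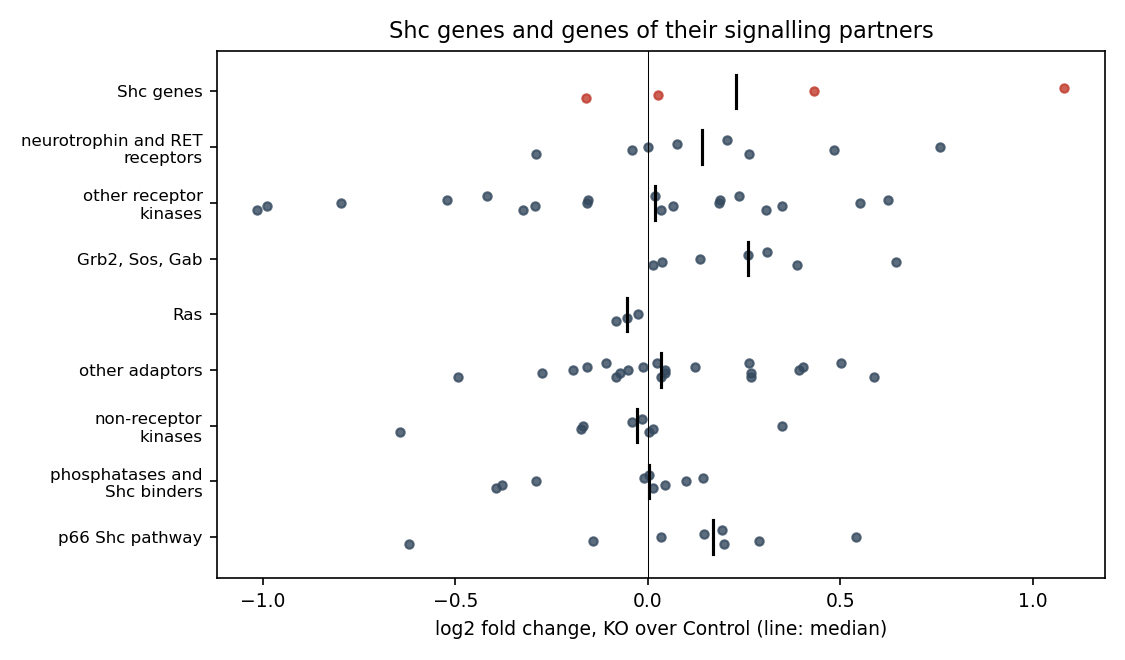
Log2 fold change of KO over Control (horizontal axis) for the 4 Shc genes and the 83 tested genes of the 8 partner lists; each point is a gene and each black line a group's median. Shc4 at 1.08 lies to the right of all partner genes, and medians run from -0.05 for the Ras genes to 0.26 for the Grb2, Sos and Gab group.

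Marker genes of cell types were measured beside these values, and of 66 tested genes in 7 such lists 1 passed the edgeR test over all genes (0.259% of all genes did), Cldn11 of the oligodendrocyte list, named after its value was seen (28.01 ± 7.56 CPM in KO and 49.2 ± 5.68 CPM in Control, edgeR adjusted p = 0.0375). DESeq2 called 3 of the 66 (1.25% of all genes) and limma-voom 1 (0.207% of all genes), all of the oligodendrocyte list. Of all tested genes 10.6% passed edgeR p 0.05 before adjustment, and 5.93% were without overlap between the groups (KO below in 2.91%). Log2 fold changes were positive for 53.8% of all tested genes. All 9 markers of the Otp lineage were positive (median log2 fold change 0.46, 5 at edgeR p 0.05 before adjustment). Their sum was 1349 to 2188 CPM in KO against 1176 to 1222 in Control. Sst made up the largest part of it, with means of 727 CPM in KO and 509 CPM in Control. Avp, Oxt and Arnt2 made up most of the rest, and each of these genes overlapped between the groups. All 12 oligodendrocyte markers were negative (median -0.31, 6 at edgeR p 0.05 before adjustment and 4 without overlap between the groups), as were all 8 markers of oligodendrocyte precursors (median -0.32, 2 at edgeR p 0.05 before adjustment), whose sum was 114 to 175 CPM in KO against 177 to 214 in Control. Of 10 microglial markers 1 was positive and 9 negative (median -0.57, 1 at edgeR p 0.05 before adjustment), and they summed to 12.7 to 29.7 CPM in KO against 14.7 to 54.9 in Control, while endothelial and mural markers (5 positive and 6 negative, median -0.27) summed to 11.07 to 33.9 CPM in KO against 12.2 to 47.4 in Control. Of 8 astrocyte markers 3 were positive and 5 negative (median -0.06), with sums of 763 to 1096 CPM in KO against 865 to 937 in Control. In the precursor, astrocyte and endothelial and mural lists 1 marker each was lower in KO without overlap, and in the neuronal list 1 was higher. The Otp-lineage and microglial lists held 0 such markers. No marker was at 0 in all libraries. A score averaged 33 markers with equal weight, 12 oligodendrocyte, 10 microglial and 11 endothelial and mural. Control replicate 3 scored -0.46 and KO replicate 1 -0.55, at oligodendrocyte sums of 2953 and 1675 CPM. The score thus adjusts for the oligodendrocyte difference only in part. With this score as a covariate, the log2 fold changes were 1.11 for Shc4, 0.49 for Shc3, -0.28 for Shc2 and -0.01 for Shc1. In that edgeR fit 0 of 4 passed over all genes, where 0.143% of all genes did, and 2 passed p 0.05 before adjustment, where 9.24% did. The part of the Otp-lineage and precursor markers in the Shc values was not tested.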

How the data were processed

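The authors deposited 1 table of unnormalised read counts for each library, with genes named by symbol and reads aligned to mm10 with TopHat2 2.0.9 and HTSeq, and DESeq2 is also named, per the submitters' processing notes (annotation and strand setting: not given in the sources used here). Double-stranded cDNA was amplified from little RNA with poly(A) and random priming and made into DNA libraries without strand marking or molecular identifiers, per the labels' protocols, so intervals cover counting and sample error together.

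From the 24421 gene rows (92 ERCC spike-in and 5 HTSeq counter rows left out), genes were kept with filterByExpr (minimum count 10, minimum total 15), scaled with TMM and tested with edgeR 4.0.16 in R 4.3.3 (robust quasi-likelihood model of 8 libraries without covariates). Benjamini-Hochberg adjusted p-values cover the whole set of 15438 genes and were read at 0.05. Log2 fold changes are KO over Control. SE and 95% intervals come from the quasi-likelihood statistic. CPM values are means ± SD. For single genes and ratios, exact permutation tests (two-sided) were used. Gene counts per library ran from 33223878 to 57300362, and the chi-square per degree of freedom was 25.9 or more in all 28 pairs, so no library repeats another. Alternatives were DESeq2 1.42.0, limma-voom (limma 3.58.1), other scalings, no filter, a replicate block, a glial and vascular covariate and leaving out each library. The fit was tested on simulated counts. Loci, lengths and overlaps come from GENCODE M21 (GRCm38) by symbol, and promoters from RefSeq (GRCm38.p6), which matched 3 of the 4 Shc genes.

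The 4 members and the lists were chosen with earlier results of these data known. Named were the Shc genes and Cic, overlapping or nearest genes, the 3 most similar genes per member (prior count 2; 2 of the 12 are not reported here), and of each partner list those past the threshold, otherwise the smallest p in each direction, plus Grb2, Sos1, Ntrk2 and Ntrk3.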

Additional observations from a re-analysis of the deposited data

Results flagged for a closer look

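In 5 of the 74 groups of 4 libraries examined, over 37 named genes, 1 library lay far from the other 3, where chance alone gives about 1 in 20. None of them was a value of a Shc gene. Near the Shc genes these were Eid1 in KO replicate 2 (218 CPM, next 331), Cks1b in Control replicate 2 (7.53 CPM, next 5.40) and Odf3l2 in Control replicate 3 (1.19 CPM, next 0.353). The others were Cic in Control replicate 2 (72.4 CPM, next 101) and Mob1b in Control replicate 4 (10.2 CPM, next 6.66).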

How the results depend on the processing

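Over 16 alternatives the log2 fold change of Shc4 stayed between 0.92 and 1.26, and it passed in 2 of them, with DESeq2 (1.08) and without KO replicate 4 (1.26), at adjusted p values from 0.0139 to 0.314 over all alternatives. Shc3 (0.34 to 0.53) and Shc2 (-0.30 to -0.04) kept their sign and did not pass in any. Shc1 turned negative with limma-voom (-0.043), upper-quartile scaling (-0.0034), the replicate block (-0.050) and the glial and vascular covariate (-0.0067), and ranged from -0.20 to 0.18 when 1 library was left out. Of all genes tested 40 passed, against 182 with DESeq2, 26 with total counts only, 65 with the replicate block, 22 with the covariate and 14 to 53 without 1 library, and of the partner genes 0 passed, against 1 with DESeq2. The cause of these differences was not tested. Of the scalings, the upper-quartile one moved the median of all genes most (-0.0288 on the log2 scale).

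No label says that a replicate number marks a pair of mice. Same-numbered KO and Control libraries deviated from their group means with correlations of -0.05, -0.05, -0.0014 and 0.10, and 1 KO library correlated best with its own number. With the replicate block Shc4 was at 1.05 (adjusted p = 0.116) and Shc3 at 0.44 (adjusted p = 0.231).

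Over 33 other named genes, 528 values under alternatives held 486 with the same sign and call, 11 weaker, 1 stronger and 30 with the sign turned, the last all for values that did not pass in any fit. Leaving out 1 library gave log2 fold changes of -0.32 to 0.051 for Cks1b, -0.16 to 0.093 for Pygo2, -0.18 to 0.32 for C2cd4c, -0.015 to 1.04 for Odf3l2, -0.35 to 0.060 for S1pr3, -0.18 to 0.33 for Cks2, -0.11 to 0.074 for Eid1, -0.15 to 0.00029 for Nras, -0.031 to 0.71 for Syk, -0.061 to 0.16 for Ptpn1, -0.0097 to 0.085 for Grb2, -0.094 to 0.11 for Ntrk2, -0.20 to 0.26 for Zdhhc24 and -0.39 to 0.13 for the log2 ratio of Shc2 to Shc1. Ntrk2 was also negative with DESeq2 (-0.0059), RLE scaling (-0.0059), upper-quartile scaling (-0.025), total counts (-0.011) and no filter (-0.0072), and with the covariate Pygo2 was at 0.028 and C2cd4c at -0.10. Lcp2 passed in 5 of 16 alternatives. With 3 libraries in a group the exact test of ratios cannot pass the threshold, so those p-values say nothing on stability.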
